A study of Mus musculus with 6 samples.

Results

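Synaptotagmins are membrane proteins of secretory vesicles and of the plasma membrane, each with a pair of C2 domains that face the cytosol. The genes described here are 10 of them, *Syt1*, *Syt2*, *Syt4*, *Syt5*, *Syt6*, *Syt7*, *Syt9*, *Syt10*, *Syt11* and *Syt13*, chosen by their symbols from the 32285 genes counted in single cells of mouse autonomic ganglia. In all, 17 symbols in the count tables are Syt followed by a number, and the remaining 7 were treated with the wider family of C2 domain proteins at the end. Every member was counted in all 6 libraries, and all 10 are accounted for in each comparison.

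In a neuron, calcium that enters with an action potential binds the C2 domains of a synaptotagmin, which then act on the SNARE complex to let the vesicle fuse. *Syt1*, *Syt2* and *Syt9* encode the fast sensors of synaptic release, and *Syt7* a slower sensor of high affinity that serves asynchronous release, facilitation and the exocytosis of dense-core vesicles. *Syt5* also binds calcium, and *Syt6* and *Syt10* form a subgroup whose proteins dimerize through N-terminal cysteines, the *Syt10* product being known as a sensor for the release of a growth factor in the olfactory bulb. *Syt4*, *Syt11* and *Syt13* encode proteins whose C2 domains lack residues needed for the usual binding of calcium. Autonomic ganglion neurons release acetylcholine or noradrenaline, with peptides stored in dense-core vesicles, onto glands, smooth muscle and vessels.

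The cells came from whole ganglia of postnatal day 5 pups of both sexes, and all 6 libraries share both alleles, a Cre transgene and a tdTomato reporter at the Rosa locus that Cre switches on. Stellate, lumbar and coeliac ganglia are sympathetic, the sphenopalatine ganglion is parasympathetic, and the pelvic ganglion is the one whose place between the divisions was the question of the study. Pelvic library 1 was made in round 1 with the sphenopalatine and stellate libraries, using 10x chemistry version 2, and pelvic library 2 in round 2 with the lumbar and coeliac libraries, using version 3. Only the pelvic ganglion has 2 libraries, 1 in each round, so each of the other ganglia cannot be told apart from its library. The p-values set the differences between cell classes against their variation from library to library, which may be partly technical. Between neurons and glia that variation also includes differences between ganglia. The cells carry no label of the pup they came from.

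Neurons and glial cells were separated by their marker genes among 21442 cells that passed the filters of the study. Neurons numbered 2724 in the stellate, 1903 in the sphenopalatine, 893 in pelvic library 1, 237 in the coeliac, 930 in the lumbar and 365 in pelvic library 2, with median depths from 26651 UMIs (unique molecular identifiers, 1 per counted RNA molecule) in the stellate to 108598 in pelvic library 2. The 4 neuronal markers used for that selection (*Stmn2*, *Stmn3*, *Gap43*, *Tubb3*) summed to between 11002 and 16173 UMIs per 1000000 (CPM) in neurons and 391 to 2443 CPM in glial cells. Pelvic neurons fell into clusters called P1-like to P4-like by marker genes of the study, with 355 and 156 neurons in P1-like in pelvic libraries 1 and 2, 329 and 87 in P2-like, 130 and 33 in P3-like and 60 and 33 in P4-like. The synaptotagmin genes and their relatives were left out of the genes used for clustering, although other genes of the same cells drew the clusters. A further 75 pelvic neurons, led by haemoglobin and collagen genes and at about 5.92% of the median depth of pelvic neurons, stayed unnamed and were not used in the cluster comparisons.

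Transmitter genes followed the labels. *Th*, the rate-limiting enzyme of noradrenaline synthesis, stood at 994 CPM in stellate, 658 in coeliac and 452 in lumbar neurons, at 503 and 515 CPM in P3-like neurons of pelvic libraries 1 and 2, and at 3.40 CPM or less in the other pelvic clusters and in the sphenopalatine. *Chat*, which makes acetylcholine, stood at 24.7 CPM in the sphenopalatine and between 31.0 and 83.7 CPM in every named pelvic cluster but P3-like, where it stood at 0.585 and 0.265 CPM.

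The members lie on 8 chromosomes, with *Syt5* and *Syt9* both on chromosome 7 and *Syt6* and *Syt11* both on chromosome 3, where the 2 genes of each pair are far apart. The promoters of 4 members whose levels ranged widely between neuron groups follow from RefSeq, as the 250 bases before an annotated start in build GRCm38.p6, 5′ to 3′ along the strand of the gene. *Syt6* (gene body chr3:103575231-103645569, plus strand; start region chr3:103574995-103575244), *Syt10* (chr15:89782393-89841860, minus strand; chr15:89841861-89842110), *Syt1* (chr10:108497650-109010982, minus strand; chr10:109010976-109011225) and *Syt2* (chr1:134646677-134762593, plus strand; chr1:134646362-134646611) are all protein-coding genes. Capitals mark matches, on either strand, to 5 short motifs. TAATTA is held by 4.84% of 32851 start regions of the same length, CAGCTG by 13.0%, GATAA by 22.6%, GGGCGG by 32.7% and TGACGTCA by 1.55%.
Syt6: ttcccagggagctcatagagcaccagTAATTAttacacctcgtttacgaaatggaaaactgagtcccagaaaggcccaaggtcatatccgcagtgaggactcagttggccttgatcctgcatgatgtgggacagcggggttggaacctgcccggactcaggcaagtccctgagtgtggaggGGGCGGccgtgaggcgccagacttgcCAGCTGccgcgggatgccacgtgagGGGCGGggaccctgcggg
Syt10: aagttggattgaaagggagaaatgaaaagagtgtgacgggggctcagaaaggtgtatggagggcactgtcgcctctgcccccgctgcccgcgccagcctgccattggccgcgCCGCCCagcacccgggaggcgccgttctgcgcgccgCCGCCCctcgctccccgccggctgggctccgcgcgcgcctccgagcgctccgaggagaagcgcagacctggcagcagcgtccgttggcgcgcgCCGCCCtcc
Syt1: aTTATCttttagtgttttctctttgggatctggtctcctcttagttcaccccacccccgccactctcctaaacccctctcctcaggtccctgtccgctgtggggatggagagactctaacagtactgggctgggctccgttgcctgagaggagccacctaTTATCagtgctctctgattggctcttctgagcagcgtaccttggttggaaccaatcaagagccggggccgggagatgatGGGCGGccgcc
Syt2: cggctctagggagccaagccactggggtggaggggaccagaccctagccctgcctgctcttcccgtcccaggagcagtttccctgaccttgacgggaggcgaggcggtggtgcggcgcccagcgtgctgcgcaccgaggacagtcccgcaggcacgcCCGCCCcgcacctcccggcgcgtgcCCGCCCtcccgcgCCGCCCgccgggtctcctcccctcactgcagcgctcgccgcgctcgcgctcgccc

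The *Syt6* region held 1 match to TAATTA, 1 to CAGCTG and 2 to GGGCGG, and was the only one of the 4 with a match to TAATTA. The *Syt1* region held 2 matches to GATAA and 1 to GGGCGG. The *Syt10* and *Syt2* regions held 3 matches each to GGGCGG and none to the other letters, at 72% and 76% G and C against a median of 52.4% over all start regions. These are matches of letters in 1 window of each gene, and other windows of these genes differed. The other *Syt6* windows held 0 matches to TAATTA. The other *Syt1* window held 1 match to CAGCTG, 1 to GATAA and 0 to GGGCGG, and the other *Syt2* window 2 to GGGCGG. RefSeq listed start regions for 6 members, 10 windows in all, and no window of *Syt4*, *Syt5*, *Syt7* or *Syt13* was used here.

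**Figure D1:**
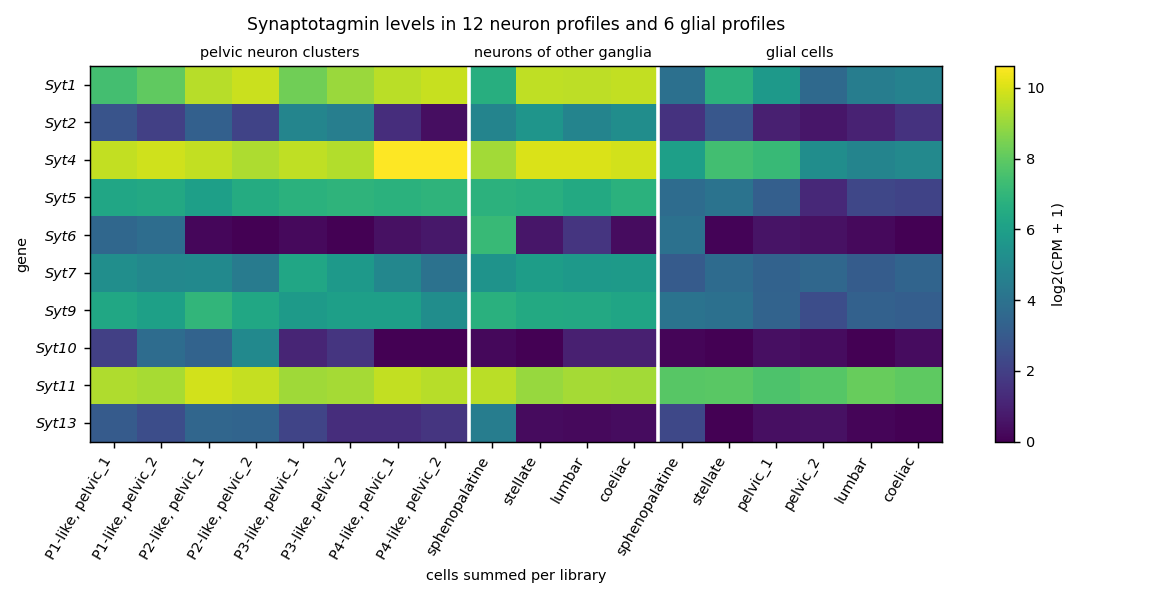
Levels of the 10 genes as log2(CPM + 1), in colour, in 12 neuron profiles and 6 glial profiles, each the summed UMIs of 1 class of cells in 1 library. *Syt4* and *Syt11* are high in every neuron profile, *Syt1* is lowest in sphenopalatine and P1-like neurons, and *Syt6* and *Syt10* are near 0 outside a few columns. *Syt13* is near 0 in stellate, lumbar and coeliac neurons and in glia outside the sphenopalatine.

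Together *Syt4*, *Syt11* and *Syt1* accounted for most of the synaptotagmin RNA of every neuron group. In the sphenopalatine, however, *Syt6* (7.64%), *Syt5* (6.03%) and *Syt9* (5.68%) each had a larger share than *Syt1* (5.47%). UMIs count molecules at the 3′ end and are not scaled by gene length, and CPM of different genes are set side by side on that basis. Whether the genes are captured equally well was not tested, so shares between genes are approximate. The 10 genes summed to between 1846 CPM in sphenopalatine and 2630 CPM in stellate neurons among whole ganglia, and to 3266 and 3313 CPM in the P4-like neurons of the pelvic libraries, the highest of the 12 profiles. *Syt4* made up 30.5% of that sum in the sphenopalatine and 36.2% to 39.8% in the sympathetic ganglia. Its share was 46.8% and 47.4% in P4-like neurons and 29.6% and 25.0% in P2-like neurons.

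*Syt1* had the widest spread of share among the abundant members. It made up 28.8% to 31.1% of the synaptotagmin UMIs in the 3 sympathetic ganglia, 5.47% in the sphenopalatine, and 9.31% and 12.9% in the P1-like neurons of pelvic libraries 1 and 2. *Syt11* made up 39.7% in the sphenopalatine and 19.2% in the stellate. These shares are parts of 1 sum, so that a lower share of 1 gene raises those of the others.

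**Figure D2:**
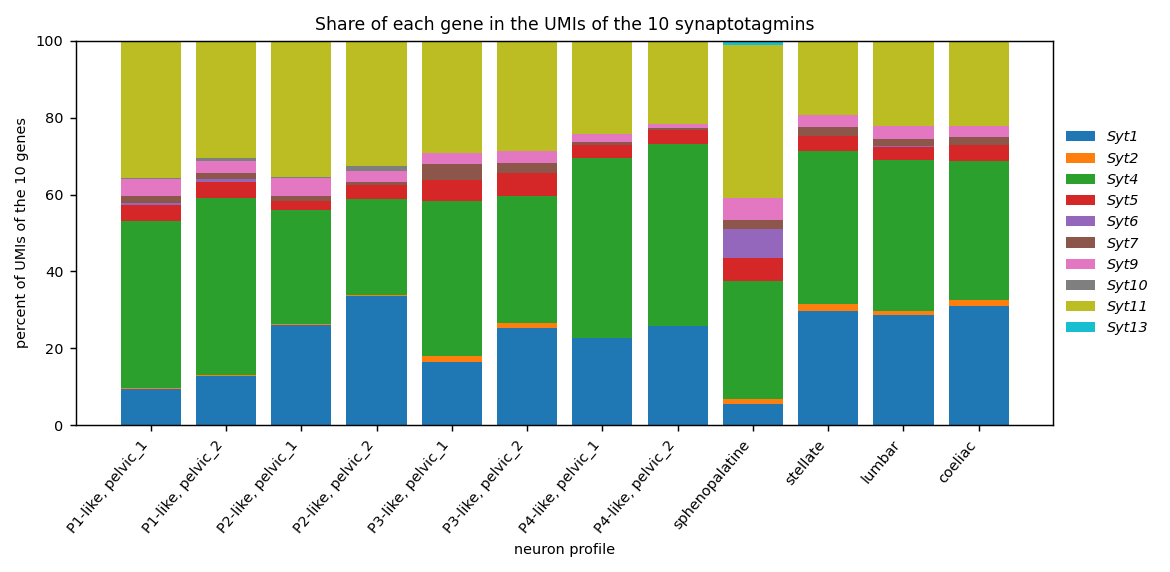
Share, in percent, of each gene in the UMIs of the 10 synaptotagmin genes, for 8 pelvic cluster profiles and 4 ganglia. *Syt1* takes 5.47% of the sphenopalatine column and 31.1% of the coeliac column, and the *Syt6* segment is widest in the sphenopalatine.

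The first comparison asked which members are neuronal. All 7 members that passed the count filter were higher in neurons than in glial cells of the same libraries, where 37.8% of 14019 genes tested were higher and 37.4% were lower, by edgeR's quasi-likelihood test with the library as a block and Benjamini-Hochberg adjustment over all genes. *Syt6*, *Syt10* and *Syt13* did not pass the filter on low counts and are described by their values. Because a gene high in neurons passes more readily, the 7 are not a count over all members.

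*Syt1*, the main fast sensor of the forebrain, stood at 784 CPM in stellate, 101 in sphenopalatine, 435 in pelvic library 1, 806 in coeliac, 749 in lumbar and 499 in pelvic library 2 neurons. In glial cells of those libraries it stood at 113, 14.3, 52.9, 24.9, 21.5 and 11.5 CPM in the same order. Each neuron value was above the glial value of its own library, and the lowest neuron value was below the highest glial value. The log2 fold change was 4.12 ± 0.50 (SE), with an adjusted p of 0.000114 by edgeR's quasi-likelihood test.

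The other calcium sensors rose in neurons too, by the same edgeR test. *Syt2*, the fast sensor of the hindbrain and neuromuscular junction, was higher by 3.76 ± 0.26 on the log2 scale (adjusted p = 6.83e-06, edgeR), from 0.546 to 6.40 CPM in glia to 4.85 to 45.1 CPM in neurons. For *Syt5* the log2 difference was 4.05 ± 0.45 (adjusted p = 7.07e-05, edgeR), and *Syt9*, a fast sensor found in striatal and limbic neurons and in endocrine cells, was higher by 3.23 ± 0.17 (adjusted p = 2.19e-06, edgeR). *Syt7* had a smaller difference, 2.36 ± 0.17 (adjusted p = 8.55e-06, edgeR), and glial cells held it at 7.38 to 12.1 CPM in all 6 libraries.

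*Syt4* and *Syt11*, the members that do not bind calcium in the usual way, differed from each other in glia. *Syt4* rose by 3.95 ± 0.47 (adjusted p = 0.000105, edgeR), from 27.0 to 170 CPM in glia to 564 to 1047 CPM in neurons. *Syt11* rose by only 1.51 ± 0.14 (adjusted p = 2.46e-05, edgeR), from 201 to 281 CPM in glial cells to 505 to 763 CPM in neurons. In glia *Syt11* was the member with the highest level in each of the 6 libraries, and its neuron-to-glia ratio stayed between 2.06 in the lumbar and 3.80 in pelvic library 1.

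The neuron-to-glia ratios of *Syt1*, *Syt4* and *Syt5*, 3 of the 7 members tested, separated the rounds of the experiment without overlap. The share of all genes whose ratios or glial levels do so was not counted, so the separation cannot be read as particular to these members. The neuron-to-glia ratio of *Syt1* was 6.93, 7.08 and 8.22 in the 3 libraries of round 1 and 32.3, 34.8 and 43.5 in those of round 2. *Syt4* had ratios of 5.91 to 9.09 in round 1 and 24.7 to 37.9 in round 2, and *Syt5* of 6.69 to 9.29 and 22.8 to 67.8. Glial levels of *Syt4*, *Syt5* and *Syt9* did not overlap between rounds, while *Syt1* in sphenopalatine glia of round 1, at 14.3 CPM, lay below coeliac and lumbar glia of round 2, at 24.9 and 21.5 CPM. The neuronal markers used for the selection stood at 1133 to 2443 CPM in glia of round 1 and 391 to 650 CPM in glia of round 2. Free RNA in the droplets is a source of such counts, and its part in the glial levels was not tested. The ratios of the other 4 members overlapped between the rounds. They ran from 7.05 to 13.7 in round 1 and 8.89 to 26.2 in round 2 for *Syt2*, from 6.19 to 9.79 and 9.41 to 13.8 for *Syt9*, from 4.30 to 5.75 and 2.66 to 6.95 for *Syt7*, and from 2.13 to 3.80 and 2.06 to 3.00 for *Syt11*.

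*Syt6*, *Syt10* and *Syt13*, which were low in the neurons of some ganglia as well as in glia, missed the filter on low counts. Without that filter each was called higher in neurons over all libraries (adjusted p = 8.56e-07 for *Syt6*, 0.000654 for *Syt10* and 6.68e-05 for *Syt13*, edgeR). *Syt6* also passed the filter and was higher with the stellate or the coeliac library left out (adjusted p = 1.81e-05 and 1.40e-05, edgeR). These calls do not show a difference in every ganglion. Exact Poisson intervals of neurons and glia overlapped for all 3 genes in the stellate and the coeliac. They also overlapped for *Syt10* in the sphenopalatine and for *Syt13* in the lumbar, and not in the remaining cases. The neuron-to-glia ratio of *Syt10* was 1.52 in the sphenopalatine, 3.07 in the coeliac, and 14.3 and 56.6 in pelvic libraries 1 and 2. *Syt6* stood at 14.5 CPM in sphenopalatine glia and at 0.467 CPM or less in glia elsewhere, with a neuron-to-glia ratio of 9.72 in the sphenopalatine. *Syt13* stood at 3.87 CPM in sphenopalatine glia and at 0.409 CPM or less in the others. *Syt10* reached at most 3 UMIs in the glia of any library.

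**Figure D3:**
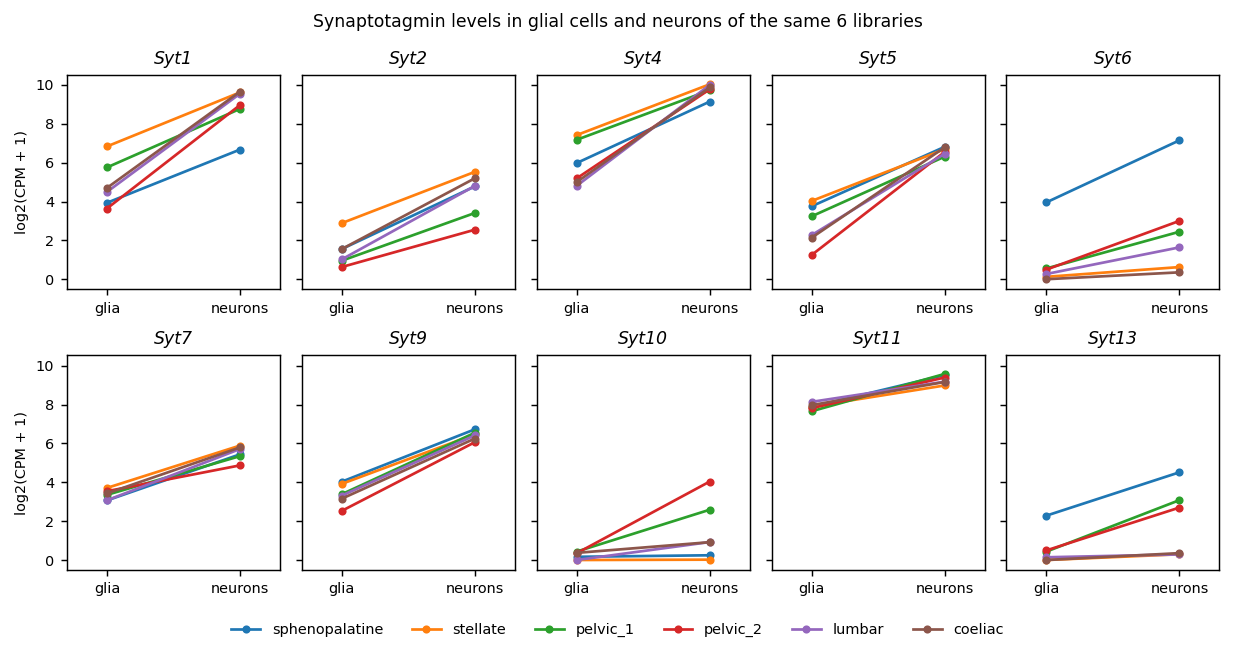
Level of each member, as log2(CPM + 1), in the summed glial cells and neurons of each of the 6 libraries, a line joining the values of 1 library. The lines of *Syt4* and *Syt5* start higher in the 3 libraries of round 1 than in those of round 2, and those of *Syt11* are the flattest among abundant members, at 201 to 281 CPM in glia.

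The second comparison set the ganglia beside each other within a round, where chemistry and depth are closest. With 1 library per ganglion there is no test, and a member is counted when its CPM differs 2-fold or more and reaches 10 CPM in either ganglion. Intervals given with these CPM are exact Poisson 95% intervals and cover counting error only. The comparisons share libraries and are not independent.

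Sphenopalatine and stellate neurons differed in 3 of 9 members that reached 10 CPM. *Syt6* and *Syt13* were higher in the sphenopalatine and *Syt1* was lower, where 6.36% of all genes at that level were 2-fold or more higher and 4.06% lower. *Syt6* stood at 141 CPM (138 to 144) in the parasympathetic neurons and 0.542 CPM (0.392 to 0.730) in the stellate, a ratio of 260. That ratio was 345 with CPM averaged over neurons and 805 with neurons thinned to 4000 UMIs, where the stellate level was 0.185 CPM. For *Syt13* the values were 21.9 CPM (20.8 to 22.9) and 0.227 CPM (0.134 to 0.358), a ratio of 96.4. *Syt1* had 101 CPM (98.8 to 103) against 784 CPM (778 to 790), a level 7.76-fold lower in the sphenopalatine. Among the others at that level *Syt2* was 1.71-fold, *Syt4* 1.86-fold and *Syt7* 1.38-fold lower in the sphenopalatine, *Syt11* was 1.45-fold higher, and *Syt5* and *Syt9* lay within 1.20-fold of the stellate.

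The order of *Syt1* over the 8 neuron groups placed the sphenopalatine last. Coeliac (806 CPM), P4-like (796 ± 79.4, SD over 2 libraries), P2-like (790 ± 110), stellate (784) and lumbar (749) neurons came first. The order among these is not settled, since coeliac, stellate and lumbar neurons have 1 library each and the stellate is of another round. P3-like (414 ± 140), P1-like (215 ± 59.8) and sphenopalatine neurons (101) followed. The lowest pelvic value, 173 CPM in P1-like neurons of library 1, was above the sphenopalatine level.

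*Syt6* had a different order, with the sphenopalatine first at 141 CPM. P1-like neurons came next at 11.8 ± 1.75 CPM (SD over 2 libraries), then lumbar neurons at 2.11 CPM (1.79 to 2.48), from 153 UMIs. The remaining groups lay at 0.542 CPM or less, and their neighbours in that order did not differ beyond their spread or counting intervals. A *Syt6* UMI was found in 94.4% of sphenopalatine neurons (Wilson 95% interval 93.3 to 95.3), 1796 of 1903, and still in 43.4% after each neuron was thinned to 4000 UMIs. In the stellate 1.25% of neurons held one, 34 of 2724, and 0.0740% after thinning. Sphenopalatine glia, at a median of 4725 UMIs per cell against 38127 in the neurons, had a *Syt6* UMI in 5.42% of cells.

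*Syt13* was found in 53.5% of sphenopalatine neurons, 23.4% and 34.2% of pelvic neurons in libraries 1 and 2, and 0.587% to 2.11% of neurons of the 3 sympathetic ganglia. Sphenopalatine glia held a *Syt13* UMI in 1.91% of cells and glia of the other libraries in 0.523% or less. Its level ran from 21.9 CPM in the sphenopalatine through 10.0 ± 0.44 in P2-like, 5.98 ± 1.75 in P1-like, 2.55 ± 1.36 in P3-like and 1.88 ± 0.34 in P4-like neurons (SD over 2 libraries) to 0.278, 0.227 and 0.221 CPM in coeliac, stellate and lumbar neurons. The 3 sympathetic values overlapped in their counting intervals, and P3-like and P4-like neurons did not differ beyond the spread between libraries.

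Pelvic neurons as a whole stood between the other ganglia for *Syt1* and low for *Syt2*. Pelvic library 1 over stellate gave 0 of 7 members higher and 1 lower, *Syt2*, at 9.62 against 45.1 CPM, where 6.64% of all genes were higher and 3.55% lower. *Syt6*, *Syt10* and *Syt13* stayed under 10 CPM in both, at 4.44, 5.02 and 7.47 CPM in pelvic library 1 against 0.542, 0.0126 and 0.227 CPM in the stellate. Sphenopalatine over pelvic library 1 gave 3 of 9 members higher (*Syt6* 31.7-fold, *Syt13* 2.93-fold and *Syt2* 2.75-fold) and 1 lower (*Syt1*, 4.30-fold), against backgrounds of 3.54% and 3.97%.

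Within round 2, *Syt10* and *Syt2* were the members reaching 10 CPM that separated the pelvic from the sympathetic neurons. Pelvic library 2 over lumbar gave 1 of 8 members higher, *Syt10*, at 15.4 CPM (14.2 to 16.8) against 0.898 CPM (0.693 to 1.14), and 1 lower, *Syt2*, at 4.85 against 26.9 CPM, where 5.83% of genes were higher and 3.69% lower. Over coeliac the same comparison gave *Syt10* higher, 15.4 against 0.890 CPM, and *Syt2* lower, 4.85 against 35.6 CPM, where 5.23% were higher and 4.13% lower. *Syt6* and *Syt13* stayed under 10 CPM, at 7.02 and 5.50 CPM in pelvic library 2. They stood at 2.11 and 0.221 CPM in lumbar neurons and at 0.278 CPM each in coeliac neurons. Lumbar and coeliac, both sympathetic, differed in 0 of 7 members either way, against backgrounds of 0.884% higher and 1.13% lower.

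The 2 pelvic libraries differed 2-fold in 1 of 7 members. *Syt10* was 3.08-fold higher in pelvic library 2, at 15.4 against 5.02 CPM, and no member was 2-fold lower, where 4.12% of genes were 2-fold or more higher and 1.25% lower in library 2. *Syt2* was 1.98-fold lower in library 2 and stayed under 10 CPM in both. The libraries differ in chemistry, depth and round, which cannot be told apart here, and a ratio between rounds was therefore not taken for the other ganglia.

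**Figure D4:**
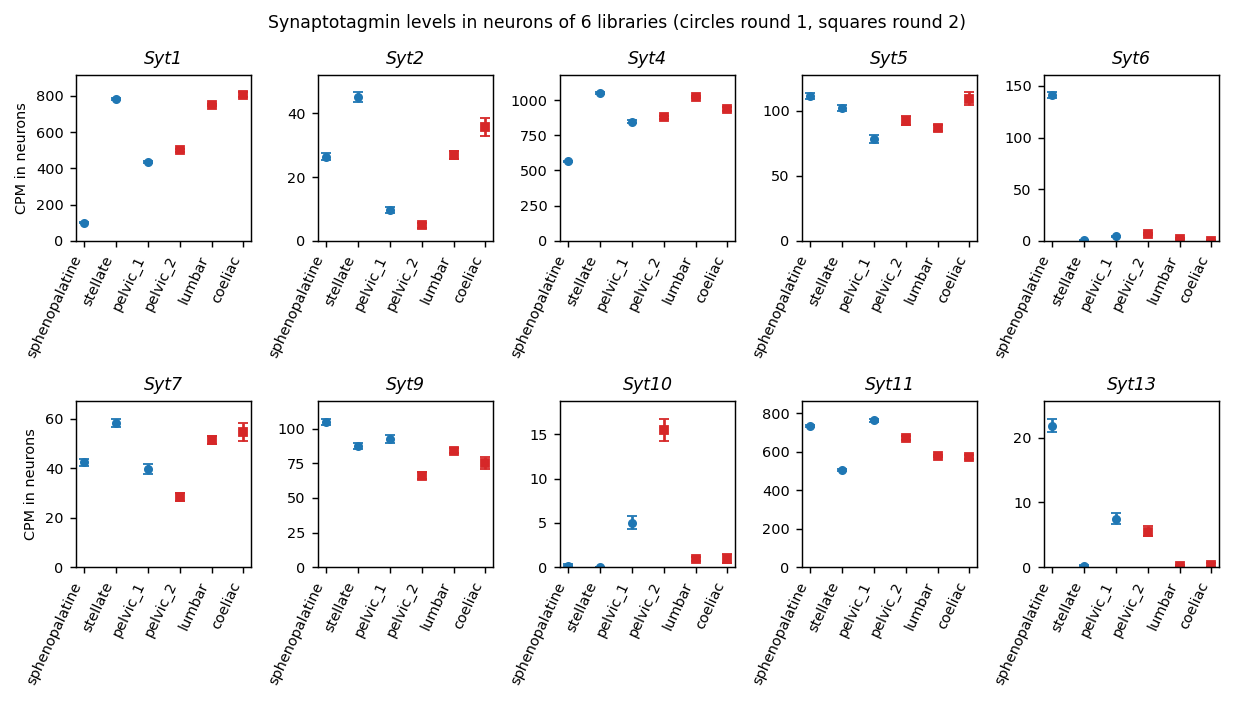
CPM of each member in the neurons of each library, with exact Poisson 95% intervals, circles for round 1 and squares for round 2, on axes that start at 0. The sphenopalatine point is the highest for *Syt6* (141 CPM) and *Syt13* (21.9 CPM) and the lowest for *Syt1* (101 CPM), and both pelvic points are the lowest for *Syt2* (9.62 and 4.85 CPM).

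The third comparison set each pelvic cluster against the mean of the other 3 in a model over the 8 sums of 2 libraries and 4 clusters, with the library as a block, 3 residual degrees of freedom and 13313 genes tested. The 4 contrasts share the same 8 sums and are not independent. Each cluster pair below gives the level in pelvic library 1 and then in pelvic library 2, and adjusted p-values are from edgeR's quasi-likelihood test with Benjamini-Hochberg adjustment over all genes. Without the library as a block, 19 of the 27 calls on members were lost and 8 kept: *Syt1* and *Syt6* in P1-like, *Syt10* and *Syt13* in P2-like, *Syt2* and *Syt7* in P3-like and *Syt2* and *Syt4* in P4-like neurons. Most calls over all genes were lost as well, by counts given in the last section, so this loss is not particular to the members.

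P1-like neurons were set apart by *Syt6* and by a low level of *Syt1*. In this cholinergic cluster 3 of 10 members rose (*Syt6*, *Syt10*, *Syt13*) and 1 fell (*Syt1*), where 9.26% of genes were higher and 6.69% lower. Each contrast averages log levels over the other 3 clusters, so the rise of *Syt10* depends on the 0 UMIs of P4-like neurons. P1-like neurons held less *Syt10* than P2-like neurons in both libraries, at 3.06 and 12.6 CPM against 9.31 and 31.4 CPM. *Syt1* stood at 173 and 257 CPM, against 316 to 868 CPM in the 6 other profiles, so that the groups did not overlap. It fell by 1.52 on the log2 scale (SE 0.11, adjusted p = 5.40e-10, edgeR). *Syt13* rose by 0.72 ± 0.23 (adjusted p = 0.0379, edgeR), at 7.22 and 4.73 CPM, a call that was lost with DESeq2 (adjusted p = 0.280) and with likely doublets removed.

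*Syt6* was almost confined to P1-like neurons among the named pelvic clusters. It counted 155 UMIs (10.6 CPM) in library 1 and 256 UMIs (13.0 CPM) in library 2, while the 3 other named clusters together had 4 and 2 UMIs. P1-like neurons therefore held 95.1% and 98.8% of the *Syt6* UMIs of all pelvic neurons. The ratio of P1-like to the 3 other clusters pooled was 56.2 (exact 95% counting interval 21.5 to 209) in library 1 and 109 (29.7 to 901) in library 2, and the adjusted p was 1.48e-11 (edgeR). A UMI of *Syt6* was seen in 25.9% and 39.7% of P1-like neurons, falling to 2.82% and 3.85% once thinned to 4000 UMIs, against 0.170% and 0.523% of pelvic glial cells. Both clusters joined under the P1-like name carried it. The one led by *Pyy* and *Cartpt* had 7.65 and 14.2 CPM, and the one led by *Penk* and *Gng8* 14.3 and 11.7 CPM.

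P1-like neurons nevertheless lay well under the sphenopalatine for this gene. Compared within round 1, *Syt6* stood at 10.6 CPM in P1-like and 141 CPM in sphenopalatine neurons. In that comparison 3 of 9 members were 2-fold or more lower in P1-like neurons, *Syt2*, *Syt6* and *Syt13*, and 0 were higher, against 6.22% of genes 2-fold apart in either direction.

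*Syt10* was counted in P1-like and P2-like neurons and not in P4-like neurons. P2-like neurons had 9.31 CPM (7.77 to 11.1) in library 1 and 31.4 CPM (28.0 to 35.2) in library 2, and P1-like neurons 3.06 and 12.6 CPM. P3-like neurons had 1.17 and 2.12 CPM from 6 and 8 UMIs. P4-like neurons had 0 of 2441127 and 0 of 3305844 UMIs, which allow up to 1.23 and 0.907 CPM (3 counts in each library), so P2-like neurons were at least 7.58-fold and 34.6-fold higher in the 2 libraries. P1-like and P2-like neurons pooled exceeded P3-like neurons by 5.20-fold (2.34 to 14.4) and 8.87-fold (4.47 to 20.6). In each library the order was P2-like, P1-like, P3-like and P4-like. The adjusted p of the P2-like contrast was 1.33e-10, that of P1-like 1.54e-05 and that of P4-like, which was lower, 2.06e-06, all by edgeR's quasi-likelihood test. These contrasts average log levels, so those of P1-like and P2-like neurons depend in part on the 0 counts of P4-like neurons.

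*Syt10* was also the member with the largest difference between the 2 libraries. A UMI was present in 27.1% of P2-like neurons of library 1 and 88.5% of those of library 2, at median depths of 39534 and 111818 UMIs per neuron. After thinning to 4000 UMIs the shares were 2.13% and 10.3%, and pelvic glia had 0.170% and 0.348% unthinned.

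P2-like neurons differed from the mean of the other 3 clusters in all members but *Syt2*. In this cluster, led by *Grp*, 5 of 10 rose (*Syt1*, *Syt9*, *Syt10*, *Syt11*, *Syt13*) and 4 fell (*Syt4*, *Syt5*, *Syt6*, *Syt7*), where 12.6% of genes were higher and 10.8% lower. *Syt13* rose most after *Syt10*, by 1.69 ± 0.22 on the log2 scale (adjusted p = 5.26e-06, edgeR), with 10.3 and 9.71 CPM against 1.59 to 7.22 CPM in the other profiles. *Syt6*, with 2 and 0 UMIs in this cluster, had 1 and 0 in P3-like and 1 and 2 in P4-like neurons. Its call was lost with doublets removed. *Syt1* rose by 0.96 ± 0.09, *Syt9* by 0.78 ± 0.12 and *Syt11* by 0.48 ± 0.09. *Syt4* fell by 0.44, *Syt5* fell by 0.40 and *Syt7* fell by 0.45 on that scale. These falls are against a mean of log levels, and none put P2-like neurons below every other cluster in both libraries. *Syt4* stood at 807 and 643 CPM, against 766 and 672 CPM in P3-like neurons. *Syt5* stood at 63.4 and 90.8 CPM, against 76.1 and 83.3 CPM in P1-like neurons. *Syt7* stood at 31.9 and 20.7 CPM, above P4-like neurons at 29.1 and 15.1 CPM.

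*Syt9* shows how the libraries limit these levels. It had 127 and 78.1 CPM in P2-like neurons, 79.6 and 65.4 in P1-like, 54.4 and 63.3 in P3-like and 62.7 and 36.3 in P4-like neurons. Across libraries the clusters overlapped, and within each library P2-like neurons had the highest value.

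P3-like neurons, the noradrenergic cluster, were set apart by *Syt2* and *Syt7*. In all, 3 of 10 members rose (*Syt2*, *Syt5*, *Syt7*) and 3 fell (*Syt1*, *Syt4*, *Syt11*), where 13.6% of genes were higher and 13.2% lower. *Syt2* stood at 27.5 and 22.5 CPM, against 0.302 to 8.58 CPM in the other profiles, and rose by 3.13 ± 0.22 on the log2 scale (adjusted p = 3.09e-10, edgeR). For *Syt7* the levels were 76.8 and 52.4 CPM against 15.1 to 36.6 CPM, and the rise was 1.26 ± 0.12 (adjusted p = 3.48e-08, edgeR). Neither gene overlapped between P3-like and the other clusters. The rise of *Syt5* was 0.35 ± 0.11, while *Syt1* fell by 0.35, *Syt4* fell by 0.47 and *Syt11* fell by 0.42. These too are against a mean of log levels. *Syt5*, at 108 and 120 CPM, was close to P4-like neurons at 110 and 120 CPM. *Syt1*, at 316 and 513 CPM, was above P1-like neurons, at 173 and 257 CPM. *Syt4*, at 766 and 672 CPM, was above the 643 CPM of P2-like neurons in library 2. Of these falls, only that of *Syt11*, at 553 and 577 CPM, put P3-like neurons below every other cluster in both libraries.

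For *Syt2* and *Syt7*, P3-like neurons lay within 2-fold of the sympathetic ganglia of the same round. Over lumbar neurons of the same round P3-like neurons of library 2 differed 2-fold in 0 of 7 members, where 7.89% of genes did so in either direction, and over coeliac neurons in 0 of 7, where 6.47% did. Over stellate neurons P3-like neurons of library 1 differed in 1 of 7, where 7.24% did. That member was *Syt1*, at 316 against 784 CPM. Over 7 members these counts lie near the shares of all genes and say little about the members. *Syt2* ran at 22.5 CPM in P3-like, 26.9 in lumbar and 35.6 in coeliac neurons of round 2, and *Syt7* at 52.4, 51.5 and 54.6 CPM. In round 1 *Syt2* ran at 27.5 CPM in P3-like and 45.1 CPM in stellate neurons, and *Syt7* at 76.8 and 58.3 CPM. *Syt2* was not limited to noradrenergic neurons, since the cholinergic sphenopalatine had 26.4 CPM in round 1, closer to P3-like neurons than the stellate was.

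P4-like neurons had the most *Syt4* and almost no *Syt2*. Here 3 of 10 members rose (*Syt1*, *Syt4*, *Syt5*) and 5 fell (*Syt2*, *Syt7*, *Syt9*, *Syt10*, *Syt13*), where 14.2% of genes were higher and 11.3% lower. *Syt4* stood at 1528 and 1571 CPM, against 643 to 921 CPM in the other pelvic profiles and 564 to 1047 CPM in the other ganglia, and rose by 0.96 ± 0.10 on the log2 scale (adjusted p = 1.58e-07, edgeR). *Syt2* had 1.64 and 0.302 CPM, from 4 and 1 UMIs, with an adjusted p of 9.70e-06 (edgeR). *Syt1* rose by 0.91 ± 0.09, *Syt7* fell by 0.89, *Syt9* fell by 0.70 and *Syt13* fell by 1.52. The rise of *Syt5*, 0.32 ± 0.11, was lost with DESeq2 (adjusted p = 0.0672), and the fall of *Syt13* with likely doublets removed (adjusted p = 0.0562, edgeR).

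*Syt2* also split the 2 clusters joined as P1-like, a difference seen after the values were known and given without a test. The cluster led by *Pyy* and *Cartpt* had 9.23 and 5.37 CPM from 76 and 56 UMIs, and the one led by *Penk* and *Gng8* had 1.24 and 0.434 CPM from 8 and 4 UMIs.

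**Figure D5:**
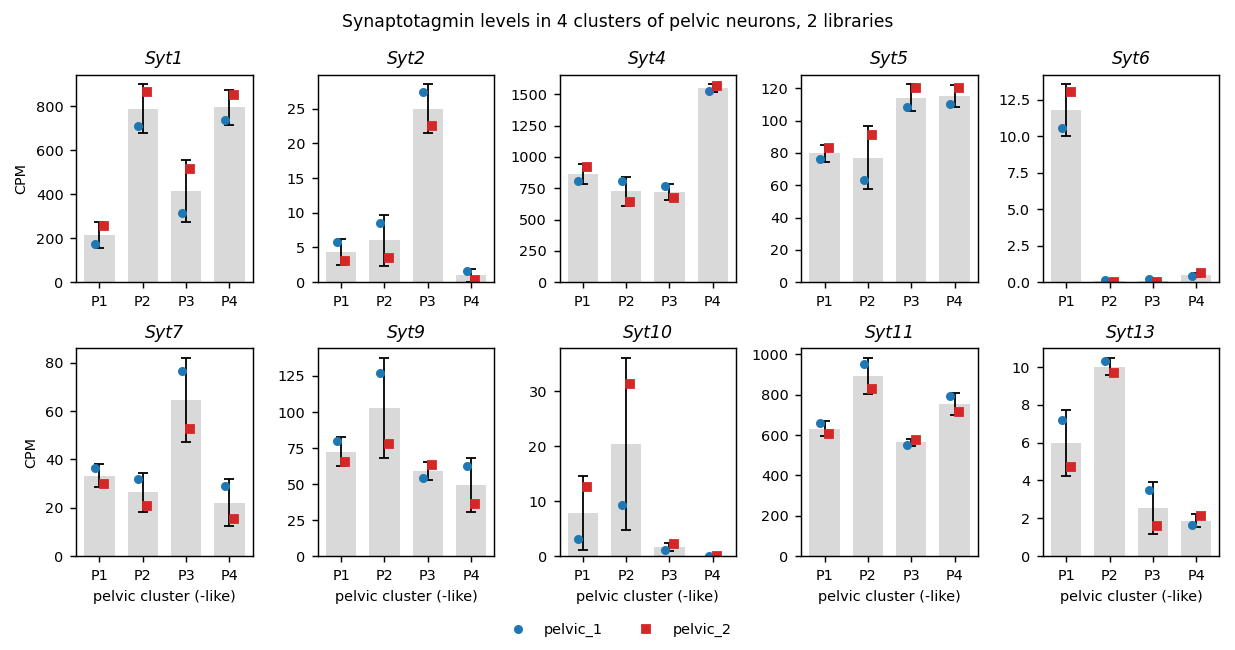
CPM of each member in the 4 named clusters of pelvic neurons, points for the 2 libraries, bars for their mean and error bars for the SD (n = 2), on axes that start at 0. *Syt6* has a bar in P1-like neurons alone (10.6 and 13.0 CPM), *Syt2* is highest in P3-like (27.5 and 22.5 CPM) and *Syt4* in P4-like neurons (1528 and 1571 CPM).

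Direction was the same in both libraries for every called member and cluster. The calls rest on those same libraries, so a pair that changes sign is unlikely to be called, and this agreement is no separate check. Of the 40 pairs of member and cluster, 4 differed in sign between libraries, *Syt2* in P2-like, *Syt4* and *Syt7* in P1-like and *Syt9* in P3-like neurons, and none of those was called. The share of all genes that changed sign was not counted.

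The score with which the study sorted genes by their share of positive cells in any split of the 8 neuron groups placed 4 members high. *Syt6* ranked 24 of 13254 genes with a finite score, for a split of the sphenopalatine from all others. *Syt10* ranked 166, for P2-like neurons, *Syt13* ranked 297, for P1-like, P2-like and sphenopalatine neurons together, and *Syt2* ranked 413, for all groups but P4-like. The other 6 members ranked from 8081 to 11474. This score uses unthinned shares, which rise with depth, and is a description with no test.

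*Syt6*, *Syt2* and *Syt10* had the widest range of level over the 8 groups, of 7.05, 4.55 and 4.42 on the log2(CPM + 1) scale, against 0.57 for *Syt5* and 0.82 for *Syt11*. Among 9984 genes, the ones with the profile most like that of *Syt6* over 12 profiles were *Adamtsl1* (Pearson r = 0.97), *Btbd9* (0.96) and *Cdh13* (0.95). *Syt2* was closest to *Doc2b* (0.98), *Cacng3* (0.97) and *Rgs4* (0.97), and *Syt10* to *Smad6* (0.94), *Zbtb1* (0.92) and *Arhgap42* (0.92). The profiles of 1 library share its depth and chemistry, and 8 of the 12 come from the 2 pelvic libraries. Among the members themselves the highest correlation was that of *Syt2* with *Syt7* (r = 0.91) and the lowest that of *Syt1* with *Syt6* (r = -0.87).

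The other 20 genes of the family, among them the remaining synaptotagmins, the synaptotagmin-like proteins that bind Rab27, the extended synaptotagmins of membrane contact sites, *Doc2* and rabphilin, were counted beside the members. Of 15 tested, 13 were higher in neurons than in glia and 0 were lower, against 37.8% and 37.4% of all genes, the median log2 difference being 3.04 against 3.76 for the 7 members and 0.01 for all genes. *Syt16* rose most, by 4.00 ± 0.38 (adjusted p = 2.96e-05, edgeR), at 39.2 to 50.8 CPM in neurons. In the pelvic clusters 16 were tested, of which 3 rose and 6 fell in P1-like, 3 and 3 in P2-like, 5 and 4 in P3-like and 3 and 4 in P4-like neurons. The shares of all genes that rose and fell were 9.26% and 6.69% in P1-like, 12.6% and 10.8% in P2-like, 13.6% and 13.2% in P3-like and 14.2% and 11.3% in P4-like neurons.

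Several of these relatives differed between pelvic clusters. *Rph3a*, rabphilin, stood at 30.9 to 44.1 CPM in P2-like neurons against 1.09 to 8.74 CPM elsewhere, a rise of 3.47 ± 0.15 (adjusted p = 1.95e-13, edgeR), and fell by 2.53 in P1-like neurons. *Sytl4*, granuphilin, a Rab27 effector of dense-core granules, had 80.5 to 85.7 CPM in P3-like neurons, a rise of 3.71 ± 0.23 (adjusted p = 3.02e-11, edgeR). It fell by 5.54 in P4-like neurons, to 0.302 to 1.23 CPM. In P2-like neurons it was called higher by 1.09, although its 13.8 to 30.3 CPM there lay under the P3-like level. *Doc2b*, a high-affinity calcium sensor of spontaneous and asynchronous release and the gene most like *Syt2*, rose by 1.73 ± 0.11 in P3-like neurons, to 77.9 to 120 CPM. *Sytl5* was called higher in P1-like and P4-like neurons, by 2.71 and 2.81, and lower in P3-like neurons, which held none. Its levels were low and far apart, at 0.340 to 4.48 CPM in P1-like and 0.410 to 4.84 CPM in P4-like neurons. Each contrast averages log levels, so both rises depend on the 0 in P3-like neurons. *Sytl2* rose by 1.68 in P2-like and fell by 3.16 in P3-like neurons. It had 2.84 to 3.03 CPM in P2-like neurons, 0.530 CPM or less in P3-like neurons and up to 2.72 CPM in the others. Its rise therefore depends in part on the low P3-like level. *Esyt3* rose by 2.07 in P4-like neurons, to 5.14 to 6.14 CPM, and fell by 2.65 in P1-like neurons, to 0.340 to 0.509 CPM. *Doc2a* fell by 1.14 in P2-like neurons.

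SNARE genes and their regulators, the machinery that synaptotagmins act on, were split. Of 27 tested, 19 were higher in neurons and 6 lower, where 37.8% and 37.4% of all genes were, with a median log2 difference of 1.47. Among those lower, *Vamp8* fell by 5.26, *Stxbp6* fell by 3.87 and *Snap23* fell by 3.83, *Vamp8* and *Snap23* being SNAREs of non-neuronal secretion. In the pelvic clusters, among 22 genes of this list that did not enter the clustering, 2 rose and 3 fell in P1-like, 4 and 1 in P2-like, 1 and 7 in P3-like and 4 and 2 in P4-like neurons. The shares of all genes, in the same order, were 9.26% and 6.69%, 12.6% and 10.8%, 13.6% and 13.2%, and 14.2% and 11.3%. *Unc13c*, a vesicle priming factor, rose by 2.11 in P4-like and fell by 2.59 in P3-like neurons, at 3.63 CPM or less throughout.

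Vesicle and active zone genes were mostly neuronal, 22 of 27 being higher and 3 lower against 37.8% and 37.4% of all genes, with a median of 3.07. *Syn2*, a synapsin that tethers vesicles, rose by 4.12 ± 0.39, and *Sv2a*, a vesicle glycoprotein that binds *Syt1*, by 3.87 ± 0.38. Among 23 genes that did not enter the pelvic clustering, 2 rose and 3 fell in P1-like, 4 and 6 in P2-like, 6 and 6 in P3-like and 8 and 2 in P4-like neurons, set against the same shares of all genes, 9.26% and 6.69%, 12.6% and 10.8%, 13.6% and 13.2%, and 14.2% and 11.3%. *Sv2b* rose by 3.20 ± 0.39 in P1-like neurons (adjusted p = 2.33e-06, edgeR), where *Rims1* fell by 1.69. *Rab3b*, *Synpr* and *Syn2* took part in the clustering, so their levels are a description. *Rab3b* stood at 386 to 431 CPM in P3-like neurons and 5.33 to 32.7 CPM in the others, *Synpr* at 5.60 to 9.19 CPM in P1-like neurons and 0.364 to 3.90 CPM elsewhere, and *Syn2* at 144 to 156 CPM in P4-like neurons and 688 to 901 CPM elsewhere.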

How the data were processed

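The authors dissociated whole ganglia of postnatal day 5 pups and made 6 droplet libraries in 2 rounds. The deposited values are raw UMI counts per gene and cell in filtered matrices, made per the labels with Cell Ranger 6.0.1 on build mm10. Gene positions come from a GENCODE annotation of GRCm38, matched by gene identifier, and start regions from RefSeq (GRCm38.p6). The members and gene lists were chosen with earlier results of these data known.

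Of 30777 droplets, 21442 with more than 1500 and fewer than 11000 genes and under 15% mitochondrial counts were kept, as in the study. Counts were normalised with sctransform 0.4.2 in Seurat 5.3.0 (R 4.3.3), and neurons had a mean over 4 neuronal markers above 3 and over 5 glial markers below 1.15. Glial cells had at most 3 and at least 1.15. The level of the glial markers is not reported here. Pelvic neurons were aligned between libraries by mutual nearest neighbours on 50 components of 3000 variable genes, without 7 synaptotagmin-type genes, and clustered by the Louvain method at resolution 0.3 (Python 3.11.15, numpy 2.4.6, scikit-learn 1.9.0, python-igraph 0.11.9). A cluster was named when at least 3 of 5 markers of a class were among its leading genes.

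Raw counts were summed per library and class. Sums were tested with edgeR 4.0.16 (quasi-likelihood F-test, TMM factors, filter on low counts, adjusted p under 0.05), with the library as a block because both classes, or all clusters, came from the same library. Each SE is the absolute log2 fold change divided by the square root of the F statistic. Cells were not used as replicates. Ganglia with 1 library have no test, and their CPM carry exact Poisson 95% intervals (scipy 1.17.1). A count of 0 allows up to 3 counts, and shares of cells carry Wilson 95% intervals, all covering counting error only. Genes were named by rule: all members, up to 3 genes per list, contrast and direction with the largest fold change past the threshold, and 3 most similar genes for the 3 members with the widest range. The test was tried on simulated counts in which 100 genes changed 2-fold and 100 changed 4-fold. It recovered 54 and 92 of them between neurons and glia, and 68 and 95 in the P3-like contrast. Unchanged genes called numbered 7 of 14019 and 4 of 13313 simulated. Far more genes were called in the data, a setting that these rates do not cover. DESeq2 1.42.0, other size factors, no filter, no block, removal of likely doublets, another selection of neurons, a split by *Th* and *Chat*, thinning and omission of single libraries were the alternatives. Doublets were kept otherwise, and at most 49 cell barcodes were shared by 2 libraries.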

Additional observations from a re-analysis of the deposited data

Results flagged for a closer look

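Synaptotagmin RNA outside neurons and glia was looked at in cells that the comparisons did not use, named by their marker genes. *Syt13* stood at 9.04 CPM (exact Poisson 95% interval 7.88 to 10.3) in 1577 fibroblast-like cells, from 4.67 to 15.7 CPM across the 6 libraries, above the 3.87 CPM or less of glial cells and above its 0.278 CPM or less in sympathetic neurons. The highest of these libraries, pelvic library 1, had 3 UMIs in 22 cells. The lowest, the sphenopalatine, had 8 UMIs (2.01 to 9.19 CPM) and overlapped glia of that library (2.65 to 5.46). Pooled over libraries *Syt11*, *Syt4* and *Syt1* had 26.7, 24.9 and 15.6 CPM in fibroblast-like cells, and the remaining members 2.65 CPM or less. Across libraries *Syt4* ran from 7.28 to 105 CPM there. The part of free RNA in these levels was not tested.

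*Syt7* stood at 14.9 CPM (12.8 to 17.3) in 656 endothelial-like cells, from 7.90 to 18.3 CPM across libraries, and glial cells had 7.38 to 12.1 CPM. Pooled over libraries, fibroblast-like, mural-like and macrophage-like cells had 1.91, 4.30 and 2.74 CPM, and single libraries reached 10.4, 17.3 and 6.16 CPM from few UMIs, so that the fibroblast-like and mural-like values overlapped the endothelial-like ones. In the stellate, mural-like and endothelial-like cells had 17.3 CPM (7.46 to 34.1) and 17.9 CPM (12.6 to 24.7), and lumbar endothelial-like cells, at 7.90 CPM, were close to lumbar glia, at 7.41 CPM. Neither difference between these cell classes was tested.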

How the results depend on the processing

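The 7 synaptotagmins tested between neurons and glia kept their direction and their side of the threshold with DESeq2, other size factors, no filter, no block, doublets removed, another selection of neurons and each library left out. Without the filter on low counts *Syt6*, *Syt10* and *Syt13* were called higher as well, and the median of all genes moved to 0.22 for neurons over glia, 0.11 for P1-like and -0.16 for P4-like neurons. Only 2 libraries carry the pelvic clusters, so leaving 1 out leaves no test, and ganglia with 1 library cannot be left out of their own comparison. In the pelvic contrasts DESeq2 called 561 genes lower in P1-like and 1052 higher in P2-like neurons. P3-like neurons had 5 synaptotagmins lower with doublets removed, with neurons split by *Th* and *Chat* UMIs, and with no filter on low counts. *Syt10* in P3-like neurons, uncalled at 0.41 on the log2 scale, turned to -2.37 under the *Th* and *Chat* split, which pools the 3 cholinergic clusters and so weights them by size. P4-like neurons, 1 of those clusters, held 0 *Syt10* UMIs in both libraries, and on the log2(CPM + 1) scale P3-like neurons were lower than the mean of the others in both, by differences of -0.68 and -1.29. The rise of *Syt13* in P1-like neurons was lost with DESeq2 (adjusted p = 0.280), with doublets removed (0.152) and with the other selection of neurons (0.184), as was the fall of *Syt6* in P2-like neurons with the last 2 (0.984 and 0.0805 by edgeR). The rise of *Syt5* in P4-like neurons was lost in 5 alternatives, and the fall of *Syt13* there with doublets removed (0.0562) and with the other selection (0.0960).

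With the replicate block, the count of genes called higher and lower was 1233 and 890 in P1-like and 1671 and 1435 in P2-like neurons. It was 1807 and 1759 in P3-like and 1894 and 1505 in P4-like neurons. Without the replicate block, which leaves the difference between the 2 pelvic libraries in the error, the count of genes called higher and lower was 286 and 107 in P1-like, 337 and 194 in P2-like, 568 and 547 in P3-like and 703 and 357 in P4-like neurons. Synaptotagmins called were then *Syt6* higher and *Syt1* lower in P1-like neurons, and 2 higher and 0 lower in P2-like neurons. P3-like neurons kept *Syt2* and *Syt7* higher and 0 lower, and P4-like neurons kept 1 higher and 1 lower. The block changed no call between neurons and glia.

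For ganglia, thinning each neuron to 4000 UMIs moved the 2-fold counts of all genes to 181 higher and 241 lower for lumbar over coeliac, 732 and 792 for pelvic library 2 over coeliac, 524 lower for pelvic library 2 over lumbar, and 627 and 314 for pelvic library 2 over 1, where 1 synaptotagmin was then lower. With CPM averaged over neurons 2 synaptotagmins were lower in pelvic library 2 than in the coeliac. Leaving out the unnamed shallow pelvic cluster, an alternative chosen after seeing the data, moved no count of synaptotagmins. Depth limits *Syt6*, *Syt10* and *Syt13* most, which rest on under 20 UMIs in several neuron groups.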
